A study of Rattus norvegicus with 8 samples.

Results

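Coagulation regulators were examined in glomerular RNA of rats, as a set of 8 genes that initiate blood clotting, restrain it or pass its signals to cells: Serpinc1, Thbd, Procr, Pros1, Tfpi, F3, F2r and Vwf. The set was chosen by name with the strain difference of Serpinc1 in these arrays known, so every strain difference of a member is given as a description without a test. The 8 genes are 8 of the 14217 genes that the array annotation named, and they are read by 11 of the 31042 probe sets tested. A gene is represented by its probe set with the highest mean over the 8 arrays (the main probe set), and Thbd with 3 probe sets and Tfpi with 2 are the members that have more than 1. All values are log2 expression values, so a difference of 1 is a doubling. They are not scaled for transcript length, and the level of a probe set is not set against that of another.

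The Dahl salt-sensitive rat, labelled Dahl SS, which becomes spontaneously proteinuric and hypertensive, was set against the spontaneously hypertensive rat (SHR), which becomes hypertensive without proteinuria. Glomeruli of male rats of both strains on a low-salt diet were sampled at the ages of 6 and 4 weeks. Each strain had 2 rats of either age, and each rat had its own array. Both strains are inbred models that differ at many loci, and no normotensive strain was among the samples used here. With 4 rats per strain, the number of arrays limits the precision.

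Clotting begins when tissue factor (F3) on a cell surface meets factor VIIa, and it ends in thrombin, which cleaves fibrinogen and activates platelets and cells. Antithrombin (Serpinc1) inactivates thrombin and factor Xa, most quickly when bound to heparan sulfate on the vessel wall. Thrombomodulin (Thbd) binds thrombin and turns it towards protein C, which the endothelial protein C receptor (Procr) presents and protein S (Pros1) assists, while the tissue factor pathway inhibitor (Tfpi) stops the initiating complex. In the glomerulus these surfaces belong to the fenestrated endothelium and its neighbours, and fibrin in glomerular capillaries is a known lesion of thrombotic kidney disease.

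Upstream sequence was found in the RefSeq table (rat build GRCr8, the BN reference strain and not Dahl or SHR) for 5 of the 8 members. The 250 bases before the start site are shown for Serpinc1, which was lower in Dahl glomeruli, and for Pros1 and F2r, which were higher, so that the sequence of a member on each side can be read. They come from chr13:75790308-75790557 (plus strand), chr11:13677049-13677298 (plus strand) and chr2:28620580-28620829 (minus strand). Capitals mark matches on either strand to the 5 motifs searched. These were the TATA box with the letters TATAAA, the CCAAT box with its own letters, and the GC box with GGGCGG. The others were the core of many nuclear receptor sites with TGACCT, and the AP-1 site with TGANTCA. No searched motif overlaps another in these windows.
Serpinc1: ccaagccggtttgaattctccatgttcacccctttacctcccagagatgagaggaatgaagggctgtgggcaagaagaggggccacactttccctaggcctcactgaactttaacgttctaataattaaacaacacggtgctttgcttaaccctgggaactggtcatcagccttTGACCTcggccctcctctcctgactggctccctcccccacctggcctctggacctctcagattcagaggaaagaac
Pros1: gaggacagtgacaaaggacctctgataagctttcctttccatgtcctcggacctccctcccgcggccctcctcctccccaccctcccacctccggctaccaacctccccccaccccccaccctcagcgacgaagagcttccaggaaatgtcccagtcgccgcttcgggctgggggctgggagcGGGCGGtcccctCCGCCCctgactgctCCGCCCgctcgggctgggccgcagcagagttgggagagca
F2r: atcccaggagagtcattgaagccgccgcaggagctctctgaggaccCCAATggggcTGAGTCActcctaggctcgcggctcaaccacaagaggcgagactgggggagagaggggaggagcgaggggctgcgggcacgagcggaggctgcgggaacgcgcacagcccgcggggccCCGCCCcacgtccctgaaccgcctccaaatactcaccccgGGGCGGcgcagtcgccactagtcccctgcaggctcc

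The Serpinc1 sequence held the nuclear receptor core, which begins 76 bases before the start, and none of the other 4 motifs. Pros1 held 3 GC boxes, beginning 67, 55 and 40 bases before the start. F2r held a CCAAT box, an AP-1 match and GC boxes, beginning 204, 194, 76 and 36 bases before the start. Among 33469 rat upstream sequences of the same length, 12.9% held a TATA box, 34.0% a CCAAT box, 30.5% a GC box, 14.1% the nuclear receptor core and 6.34% an AP-1 site. The GC content was 52.8% for Serpinc1, 68.4% for Pros1 and 69.6% for F2r, against a median of 51.2% over all these sequences. These matches are descriptions of the reference sequence, and binding at them was not measured.

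The arrays agreed closely, with Pearson correlations of 0.989 to 0.997 between the 2 rats of a group and 0.95 to 0.994 between groups, and array medians of 4.11 to 4.16. Podocyte RNA was present, since 9 podocyte markers had mean levels per array of 10.8 to 11.3 in Dahl and 10.2 to 10.7 in SHR. Tubular RNA was present as well, since 19 proximal tubule markers had mean levels of 8.91 to 10.9 in Dahl and 11.2 to 11.9 in SHR.

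Serpinc1 was far lower in Dahl glomeruli. Its values (probe set 1392090_at) in Dahl rats were 6.30 and 4.50 at 6 weeks and 6.25 and 6.78 at 4 weeks, against 8.62 and 9.40 at 6 weeks and 8.77 and 9.47 at 4 weeks in SHR. The strains did not overlap, with 1.85 between the highest Dahl and the lowest SHR rat, and the rat labelled Dahl 6 weeks replicate 2 stood lowest of all. Serpinc1 averaged 5.96 ± 1.00 in Dahl and 9.07 ± 0.43 in SHR (SD, n = 4 each), a difference of −3.11 (standard error 0.48), or 8.63-fold lower in Dahl. The difference was −3.61 at 6 weeks and −2.61 at 4 weeks (standard error 0.69 each). Without Dahl 6 weeks replicate 2 it was −2.66 over both ages.

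Markers of both tubule segments also had a list median below 0 for Dahl minus SHR. The proximal tubule score, which is the median deviation of 19 markers from their means over the arrays, was −0.25 and −2.02 at 6 weeks and 0.17 and −0.05 at 4 weeks in Dahl, against 0.26 and 0.48 at 6 weeks and 0.70 and 0.95 at 4 weeks in SHR. The rat with the lowest Serpinc1 thus also had the lowest score, and 4 of the 19 markers were lower in Dahl, none higher, a share close to the 21.2% of all genes called lower by limma, with a median difference of −1.09. The score of 14 distal nephron markers was −0.14 and −1.49 at 6 weeks and 0.23 and −0.70 at 4 weeks in Dahl, against 0.52 and 0.09 at 6 weeks and 0.90 and 0.71 at 4 weeks in SHR. It too was lowest in Dahl 6 weeks replicate 2, although the strains overlapped, with 4 of 14 lower, none higher and a median difference of −0.86. In the SHR rats of either age and the Dahl rats of 6 weeks, the rat with more Serpinc1 had the higher proximal score. In the Dahl rats of 4 weeks it had the lower proximal score. The distal score was lower in the rat with more Serpinc1 in SHR of either age and in Dahl of 4 weeks. It was higher in that rat in Dahl of 6 weeks. The part of these lists in the Serpinc1 difference was not tested. In whole glomerular RNA, fewer cells of a type and less RNA per cell cannot be told apart. Antithrombin is made mainly in the liver. Of 11 hepatocyte markers 10 had means below the median of all values, and their mean level per array was 2.76 to 2.83 in Dahl and 2.83 to 3.06 in SHR. Albumin (Alb) reached 2.79 in Dahl and 2.89 in SHR at most, but the fibrinogen genes Fga and Fgb stood higher in some rats. Fga had 4.56 and 6.55 in the SHR rats of 4 weeks, the higher value in the rat with the most Serpinc1, and was between 3.51 and 3.99 in the others. Fgb was 3.84 to 5.04 in Dahl and 2.84 to 3.91 in SHR. The remaining fibrinogen gene, Fgg, stayed low in every rat, between 2.23 and 2.34. The part of hepatocyte RNA in the Serpinc1 difference was not tested.

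The genes whose profile over the 8 arrays was most like that of Serpinc1, among 3710 other genes that ranged over at least 1 log2 unit, were Snx5 (Pearson r = 0.99), Gsto1 (0.98), Ndufa6 (0.98), Pcca (0.98) and Pecr (0.98). The 8 points of each correlation share the step between the strains, and the values are given as a description. Gsto1, a glutathione transferase, had 9.90 and 9.39 at 6 weeks and 10.14 and 10.18 at 4 weeks in Dahl, against 10.90 and 11.12 at 6 weeks and 11.15 and 11.48 at 4 weeks in SHR. Pecr, a peroxisomal reductase of fatty acid metabolism, had the widest step of the 5, with a difference of −1.62, and Ndufa6, a subunit of respiratory complex I, had the narrowest with −0.60. Pcca, a mitochondrial carboxylase subunit, differed by −1.03 and Snx5, a sorting nexin, by −0.66, so that all 5 steps were smaller than that of Serpinc1.

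**Figure D1:**
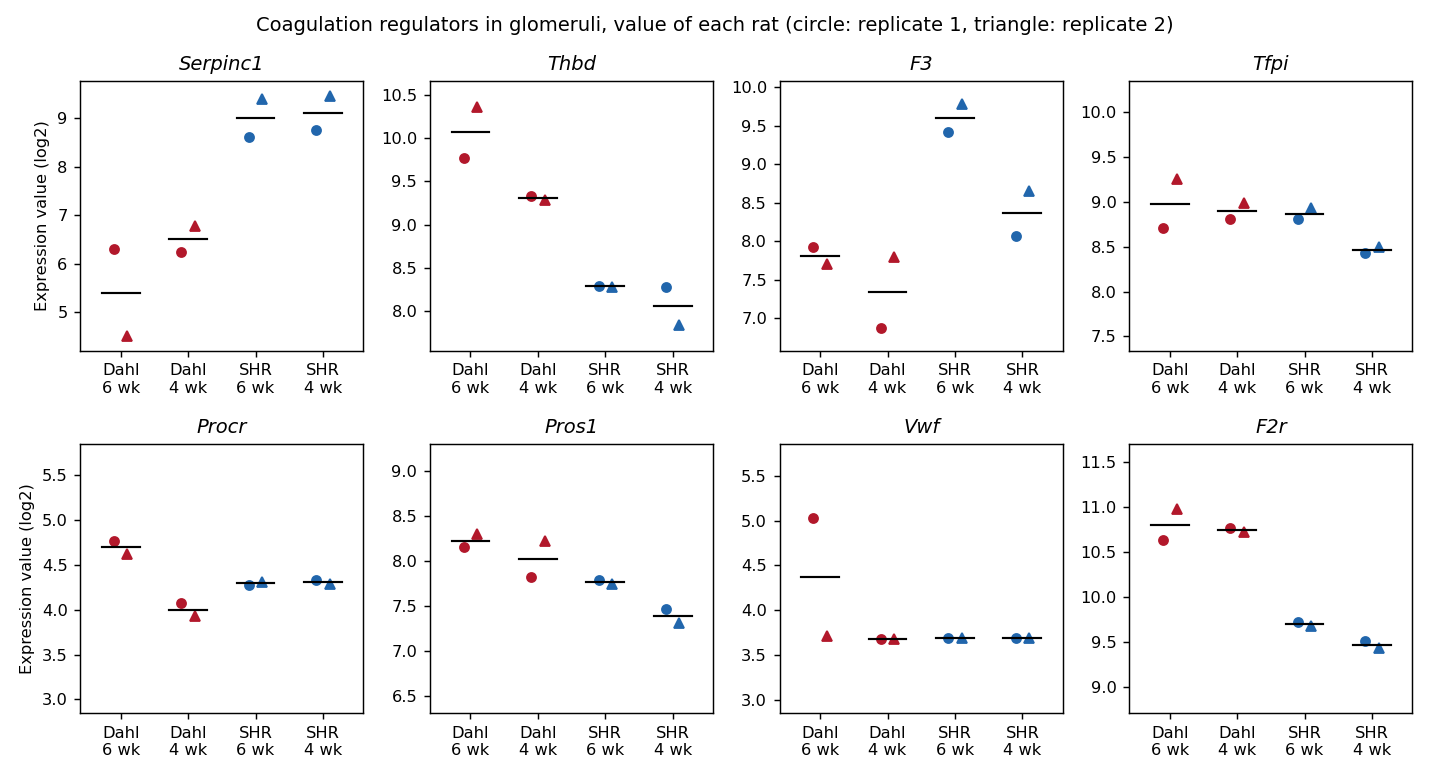
Log2 expression value of the main probe set of each member (vertical axis, a range of its own for each gene) in every rat of the 4 groups (horizontal axis), with a line at the mean of the 2 rats. Dahl rats lie wholly below SHR for Serpinc1 and F3 and wholly above for Thbd, Pros1 and F2r, and Vwf stays near 3.69 in every rat but the Dahl 6 weeks replicate 1 at 5.03.

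Thrombomodulin showed the opposite direction. Thbd (main probe set 1375951_at) had 9.77 and 10.36 at 6 weeks and 9.34 and 9.29 at 4 weeks in Dahl, against 8.29 and 8.28 at 6 weeks and 8.28 and 7.84 at 4 weeks in SHR. All Dahl rats lay above all SHR rats, with 0.99 between them. Thbd averaged 9.69 ± 0.50 in Dahl and 8.17 ± 0.22 in SHR (SD, n = 4 each), a difference of 1.51 (standard error 0.17), or 2.86-fold. At 6 weeks the difference was 1.78 and at 4 weeks 1.25 (standard error 0.24 each).

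The other probe sets of Thbd gave the same direction. Probe set 1368901_at had 8.34 and 9.01 at 6 weeks and 8.29 and 7.83 at 4 weeks in Dahl, against 6.81 and 6.91 at 6 weeks and 7.23 and 6.54 at 4 weeks in SHR. Probe set 1368900_at, the dimmest, had 5.01 and 5.92 at 6 weeks and 4.13 and 4.31 at 4 weeks in Dahl, against 2.52 and 3.22 at 6 weeks and 3.21 and 3.16 at 4 weeks in SHR. Neither overlapped between the strains, and their differences over both ages were 1.5 (standard error 0.24) and 1.82 (standard error 0.26). In Dahl rats the age difference ran upwards for all 3 probe sets, being 0.75 (unadjusted p = 0.0247, adjusted p = 0.469), 0.62 (adjusted p = 0.716) and 1.25 (unadjusted p = 0.0208, adjusted p = 0.447) by limma with Benjamini-Hochberg adjustment. None passed the threshold.

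Procr, whose product hands protein C to the thrombin-thrombomodulin complex, was near the median of all values, 4.14. It had 4.76 and 4.62 at 6 weeks and 4.07 and 3.93 at 4 weeks in Dahl, against 4.28 and 4.31 at 6 weeks and 4.33 and 4.28 at 4 weeks in SHR (probe set 1372729_at). The SHR rats lay between the 2 ages of Dahl, so the strain difference was 0.40 at 6 weeks and −0.31 at 4 weeks (standard error 0.07 each) and 0.05 over both ages, which turned to −0.009041 under quantile normalization. The age difference was 0.69 in Dahl (adjusted p = 0.0934) and −0.01 in SHR (adjusted p = 1.0). The difference between these age differences, the interaction of strain and age, was 0.71 (standard error 0.10, unadjusted p = 0.000876, adjusted p = 0.084 by limma). Neither the Dahl age difference nor the interaction passed the threshold of 0.05. The Dahl age difference passed when Dahl 6 weeks replicate 1 was left out (0.62, adjusted p = 0.0408), which leaves 1 Dahl rat at 6 weeks, assumed to vary like the other groups.

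Protein S, the vitamin K-dependent cofactor of activated protein C, was modestly higher in Dahl. Pros1 (1371037_at) had 8.16 and 8.30 at 6 weeks and 7.83 and 8.23 at 4 weeks in Dahl, against 7.79 and 7.74 at 6 weeks and 7.47 and 7.31 at 4 weeks in SHR. The strains did not overlap, but only 0.04 lay between the lowest Dahl and the highest SHR rat. The means were 8.13 ± 0.21 in Dahl and 7.58 ± 0.23 in SHR (SD, n = 4 each), a difference of 0.55 (standard error 0.10), or 1.46-fold. It was 0.46 at 6 weeks and 0.64 at 4 weeks.

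Tfpi, the inhibitor of the tissue factor and factor VIIa complex, depended on the probe set. The main probe set 1368323_at had 8.70 and 9.25 at 6 weeks and 8.80 and 8.99 at 4 weeks in Dahl, against 8.80 and 8.93 at 6 weeks and 8.43 and 8.49 at 4 weeks in SHR. Here the strains overlapped, and the difference was 0.27 (standard error 0.13), or 1.21-fold. Probe set 1389780_at had 7.07 and 7.72 at 6 weeks and 6.40 and 6.93 at 4 weeks in Dahl, against 5.48 and 5.72 at 6 weeks and 4.97 and 4.82 at 4 weeks in SHR. On that probe set every Dahl rat was above every SHR rat and the difference was 1.78 (standard error 0.20), or 3.44-fold. Which transcript each probe set reads was not examined here, so no Tfpi level can be taken from either alone.

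Tissue factor, the receptor that starts the cascade, was lower in Dahl. F3 (1369182_at) had 7.92 and 7.70 at 6 weeks and 6.88 and 7.80 at 4 weeks in Dahl, against 9.42 and 9.78 at 6 weeks and 8.07 and 8.66 at 4 weeks in SHR. The strains did not overlap, although the highest Dahl rat at 6 weeks came within 0.15 of the lowest SHR rat at 4 weeks. F3 averaged 7.58 ± 0.47 in Dahl and 8.98 ± 0.77 in SHR (SD, n = 4 each), a difference of −1.41 (standard error 0.26), or 2.65-fold lower. The gap was −1.79 at 6 weeks and −1.02 at 4 weeks (standard error 0.37 each). Between the ages F3 differed by 1.24 in SHR (unadjusted p = 0.0215, adjusted p = 0.214) and by 0.47 in Dahl (adjusted p = 0.827, limma), and neither passed.

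F2r, the protease-activated receptor through which thrombin signals to endothelial and mesangial cells, had the tightest groups among the members that separated. Its values (1367899_at) were 10.63 and 10.98 at 6 weeks and 10.77 and 10.72 at 4 weeks in Dahl, against 9.72 and 9.68 at 6 weeks and 9.51 and 9.43 at 4 weeks in SHR. All Dahl rats were above all SHR rats by 0.91 or more. The means were 10.77 ± 0.15 in Dahl and 9.58 ± 0.14 in SHR (SD, n = 4 each), a difference of 1.19 (standard error 0.08), or 2.28-fold, with 1.11 at 6 weeks and 1.27 at 4 weeks.

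Vwf, the large adhesive protein that tethers platelets and carries factor VIII, was below the median of all values in 7 of the 8 rats. It had 5.03 and 3.72 at 6 weeks and 3.68 and 3.68 at 4 weeks in Dahl, against 3.69 and 3.69 at 6 weeks and 3.69 and 3.70 at 4 weeks in SHR (1389234_at). Apart from Dahl 6 weeks replicate 1 the values lay within 0.04 of each other, and without that rat the strain difference was 0.01, against 0.34 (standard error 0.30) with it. At this signal no strain difference of Vwf beyond that rat was detectable.

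**Figure D2:**
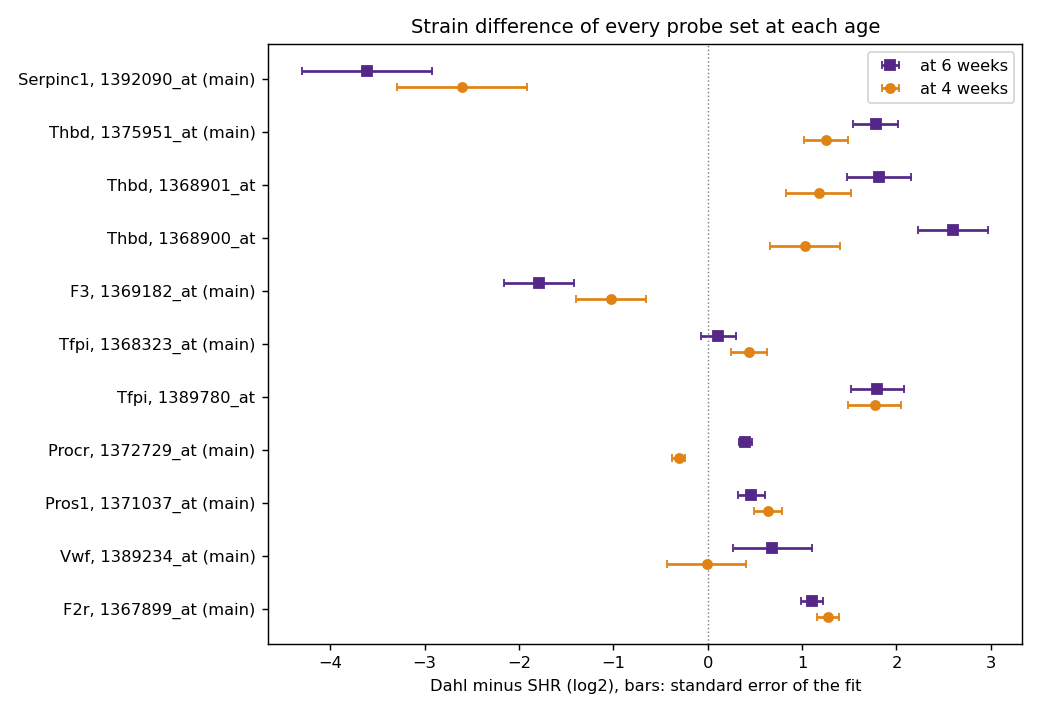
Difference between Dahl and SHR on the log2 scale (horizontal axis) for each of the 11 probe sets (vertical axis) at 6 weeks (squares) and 4 weeks (circles), with bars of 1 standard error of the fit. The 3 probe sets of Thbd lie to the right of 0, from 1.78 to 2.60 at 6 weeks and from 1.03 to 1.25 at 4 weeks. Those of Tfpi lie apart, at 0.11 and 1.8 at 6 weeks and at 0.43 and 1.77 at 4 weeks. Procr lies on either side of 0, at 0.40 at 6 weeks and −0.31 at 4 weeks.

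By count, 5 of the 8 members did not overlap between the strains, 3 with every Dahl rat above (Thbd, Pros1 and F2r, where 9.35% of the 14217 genes did so) and 2 with every Dahl rat below (Serpinc1 and F3, where 33.5% did so). Nothing is read from these counts, because the strain contrast was in view when the members were chosen. The median difference of the 8 main probe sets was 0.31, against −0.05 over all genes.

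Age was not used to choose the members and was tested. None of the 8 members passed for 6 weeks minus 4 weeks in Dahl by limma (Benjamini-Hochberg, 0.05), where 0.0985% of all genes did, and 2 members, Thbd and Procr, had an unadjusted p under 0.05. None passed in SHR, where 3.42% of genes did, with 1 member, F3, under an unadjusted 0.05. None passed in the interaction, where 0.71% of genes did, with 1 member, Procr, under an unadjusted 0.05. The methods' t-test also called none in either strain after adjustment, with 1 member in Dahl and 3 in SHR under an unadjusted 0.05, and it was not run for the interaction. Members were higher at 6 weeks than at 4 weeks in 7 of 8 cases in Dahl and in 5 of 8 in SHR, with median differences of 0.34 and 0.23. Over all genes these medians were −0.01 and 0.00. The share of all genes higher at 6 weeks is not given here, so nothing is read from these directions. In Dahl the age difference of Vwf was 0.69, and 0.03 without Dahl 6 weeks replicate 1. Those of Tfpi and F2r in Dahl changed sign with a rat left out. The call in Dahl rests on which rats are used: without Dahl 6 weeks replicate 2, Vwf passed in Dahl (1.35, adjusted p = 0.0119) and in the interaction (1.35, adjusted p = 0.0251), and both values then rest on the lone remaining Dahl rat at 6 weeks, which is assumed to vary like the other groups.

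Markers of the cells that carry these proteins differed between the strains too. Of 14 endothelial markers, 7 were higher in Dahl and none lower, with a median difference of 0.42, and the mesangial and smooth muscle list had 9 of 11 higher and none lower, with a median of 0.94. Over all genes 13.2% were called higher in Dahl and 21.2% lower. The endothelial score was 0.26 and 0.67 at 6 weeks and −0.05 and 0.09 at 4 weeks in Dahl, against −0.30 and −0.11 at 6 weeks and −0.10 and −0.42 at 4 weeks in SHR. Every Dahl rat was above every SHR rat, by a narrow margin at 4 weeks. The mesangial and smooth muscle score was 0.39 and 0.605 at 6 weeks and 0.315 and 0.479 at 4 weeks in Dahl. In SHR it was −0.435 and −0.177 at 6 weeks and −0.604 and −0.654 at 4 weeks. Of 9 podocyte markers 4 were higher and none lower, with a median of 0.48. Leukocytes can carry tissue factor and the urokinase receptor, and 6 of 15 leukocyte markers were higher and 5 lower in Dahl, of which 1 of the higher and 4 of the lower had means below the median of all values. The leukocyte score was −0.0174 and −0.00984 in Dahl against −0.494 and −0.361 in SHR at 4 weeks. At 6 weeks the strains overlapped, with 0.21 and 0.866 in Dahl against 0.352 and 0.217 in SHR. With age in SHR, 4 of the 15 markers passed by limma, against 3.42% of all genes. The part of these lists in the differences of Thbd, Pros1, F2r, Tfpi and F3 was not tested.

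**Figure D3:**
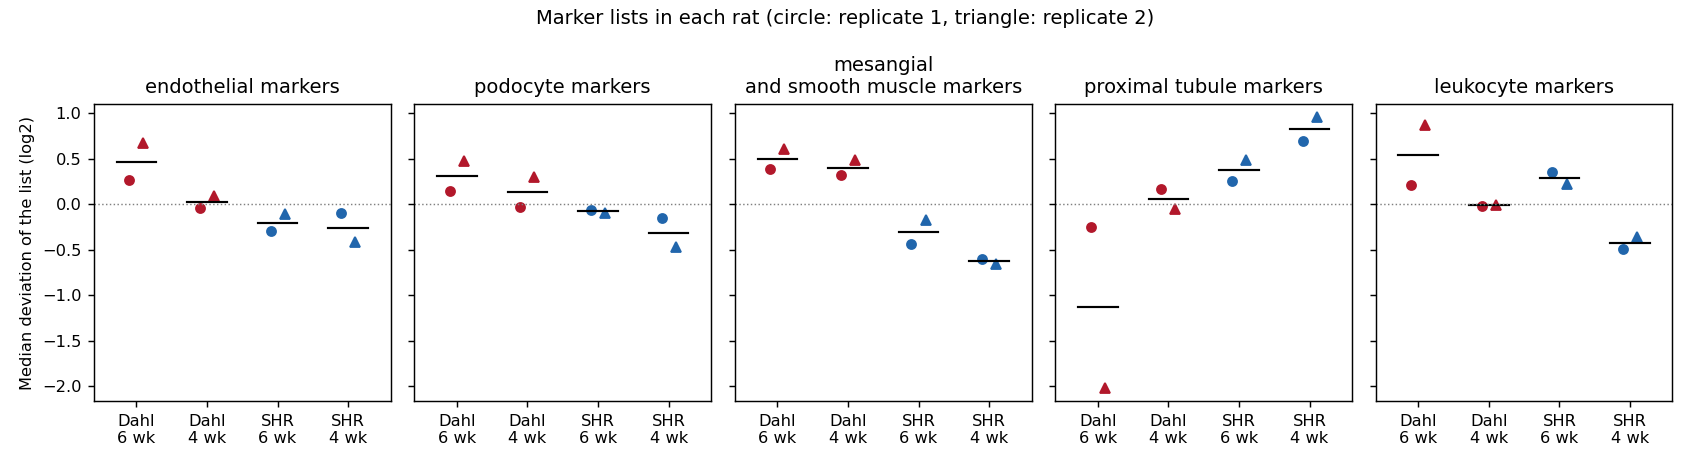
Median deviation of each marker list from its mean over the 8 arrays (vertical axis, log2) in every rat (points) of the 4 groups (horizontal axis), with a line at the mean of 2 rats. The proximal tubule list is lowest in Dahl 6 weeks replicate 2 at −2.02 and above 0 in all SHR rats, and the mesangial list is above 0 in all Dahl rats and below 0 in all SHR rats.

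Around the members stand 92 other genes of clotting, fibrinolysis and heparan sulfate in 6 lists, of which 77 were measured. The lists were fixed by gene name with earlier results of these data known, so their strain shares and p-values are a description. Over both ages 18 of the 77 were higher in Dahl (23.4%, against 13.2% of all genes) and 15 lower (19.5%, against 21.2% of all genes), and 44 did not pass by limma. Under quantile normalization the split was 13 higher and 3 lower. Of the 15 lower genes 12 had a mean below the median of all values. The 4985 genes with means that low had a median strain difference of −0.07 (interquartile range −0.12 to −0.04), about the size of most of these 12 differences. None of the 77 passed for age in Dahl, for age in SHR or in the interaction by limma, with 9, 10 and 7 at an unadjusted p under 0.05. The methods' t-test called none with age after adjustment, with 4 in Dahl and 8 in SHR at an unadjusted p under 0.05.

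Genes that were higher in Dahl included inhibitors and fibrinolytic genes of the cell surface. Serpine2, the protease nexin that inhibits thrombin and plasminogen activators and is also on the mesangial list, averaged 7.80 ± 0.31 in Dahl and 5.49 ± 0.72 in SHR (SD, n = 4 each), a difference of 2.31 (standard error 0.27, adjusted p = 0.0104 by limma). Plaur, the urokinase receptor, averaged 6.61 ± 0.64 in Dahl and 4.72 ± 0.55 in SHR, a difference of 1.89 (adjusted p = 0.026). Annexin A5 (Anxa5), which shields anionic phospholipid from clotting factors, was 0.59 higher (adjusted p = 0.0192). The plasminogen receptor pair S100a10 and Anxa2 was 0.78 and 0.66 higher (adjusted p = 0.0266 and 0.0239), and tissue plasminogen activator (Plat) was 0.54 higher (adjusted p = 0.0383). Of the 10 fibrinolysis genes 4 were higher and 1 lower, the dim Serpinb2 at −0.08, where 13.2% of all genes were higher and 21.2% lower. Plau, the urokinase itself, did not pass, with 9.93 ± 0.49 in Dahl and 10.29 ± 0.05 in SHR.

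Among 11 other anticoagulants and protease inhibitors, 3 were higher and 5 lower, against 13.2% and 21.2% of all genes. The third of those higher was Entpd1, an ectoenzyme that removes the platelet agonist ADP, at 3.26 ± 0.33 in Dahl and 2.78 ± 0.22 in SHR, which is dim (difference 0.49, adjusted p = 0.0302). The 5 lower, Tfpi2, Serpind1, Serpina5, Serpina1 and A2m, were all dim, with differences of −0.06 to −0.16. Protein C itself (Proc) did not pass, with 6.41 ± 0.69 in Dahl and 6.64 ± 0.61 in SHR.

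Of 13 other coagulation factors 1 was higher and 3 lower. For this list and the next, 13.2% of all genes were higher and 21.2% lower. Factor VIII (F8), the cofactor that Vwf carries and a product of endothelial cells, averaged 8.16 ± 0.19 in Dahl and 7.79 ± 0.15 in SHR, a difference of 0.37 (adjusted p = 0.0491), just inside the threshold. The lower ones were F5, F10 and Klkb1, which differed by −0.26, −0.08 and −0.11 and were all dim. Of 14 thrombin and platelet receptors and their ligands 1 was higher, the dim thromboxane synthase Tbxas1 (0.49, adjusted p = 0.0151), whose strains overlapped. Lower were 3, the dim thrombin receptor relatives F2rl2 and F2rl3 and the platelet chemokine Ppbp, with differences of −0.06 to −0.10.

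Protein S and other Gla proteins need carboxylation by the vitamin K cycle, and the 7 genes of this list split. Ggcx, the carboxylase, averaged 7.86 ± 0.12 in Dahl and 7.15 ± 0.11 in SHR, a difference of 0.71 (standard error 0.08, adjusted p = 0.00967). Vkorc1 and Vkorc1l1, which recycle vitamin K, were lower in Dahl over both ages, with differences of −0.36 and −0.37 (adjusted p = 0.0343 and 0.0248). For Vkorc1l1 the strains overlapped at 4 weeks, with 5.18 and 5.08 in Dahl against 4.98 and 5.25 in SHR. At 6 weeks it had 4.80 and 4.73 in Dahl against 5.54 and 5.49 in SHR. Gas6, the relative of protein S that binds TAM receptors, was 0.23 higher over both ages (adjusted p = 0.0325). It was higher in Dahl at 6 weeks only, with 10.43 and 10.62 against 10.03 and 9.97 in SHR. At 4 weeks it had 10.23 and 10.14 in Dahl against 10.25 and 10.25 in SHR.

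Heparan sulfate, on which antithrombin acts fastest, had 7 of 22 genes higher and 1 lower, with a list median of 0.28. Among all genes 13.2% were higher and 21.2% lower. The chain polymerase subunits Ext1 and Ext2 were 0.67 and 0.70 higher (adjusted p = 0.0152 and 0.0109). The carrier Gpc1 was 0.74 higher (adjusted p = 0.0159), and Sulf1, which trims 6-O-sulfates, was 1.03 higher (adjusted p = 0.0208). Hs6st1, which adds these sulfates, was lower in Dahl, with a difference of −0.57 (adjusted p = 0.0348). For both Sulf1 and Hs6st1 the strains overlapped. Hs3st1, the sulfotransferase that completes the antithrombin-binding site, was also higher, at 7.03 ± 0.53 in Dahl and 6.39 ± 0.28 in SHR (0.64, adjusted p = 0.0354), and it is named after its value was seen, since it fell outside the rule for naming genes. Its strains overlapped, with 6.32 in 1 Dahl rat and 6.66 in 1 SHR rat. Sulf2 and Hspg2 passed by limma outside that rule as well (0.49 and 0.50, adjusted p = 0.0369 and 0.0467), and for Hspg2 the strains overlapped. Hs3st1, Sulf2 and Hspg2 are not among the genes checked below for dependence on single rats.

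The calls of the genes named by the rule depend on single rats. Of the 16 named genes above the median of all values, Serpine2, Ggcx and Ext2 kept their call under every alternative. Among Dahl rats, leaving out the replicate 2 of 6 weeks cost 7 calls, the replicate 1 of 4 weeks 9 and the replicate 2 of 4 weeks 12. Among SHR, leaving out the replicate 1 of 6 weeks cost 12, the replicate 2 of 6 weeks 11, the replicate 1 of 4 weeks 4 and the replicate 2 of 4 weeks 9. The calls stood without the replicate 1 of 6 weeks in Dahl, and no direction changed.

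**Figure D4:**
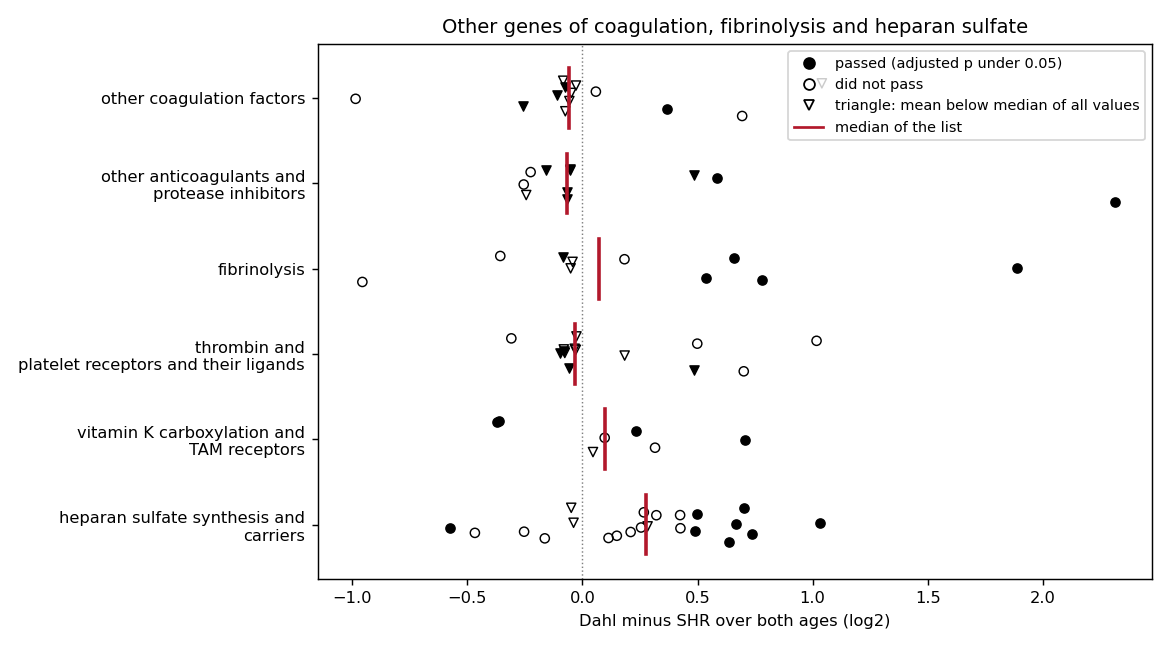
Difference between Dahl and SHR over both ages on the log2 scale (horizontal axis) of 77 genes in 6 lists (vertical axis), filled where limma's adjusted p was under 0.05, triangles where the mean was below the median of all values, and a red line at the list median. Filled circles lie mostly to the right of 0, led by Serpine2 at 2.31 and Plaur at 1.89, and the filled triangles to the left of 0 lie close to it.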

How the data were processed

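Glomerular RNA of 8 male rats was hybridized to Affymetrix rat genome arrays, 1 per rat. Glomeruli came from the left kidney by magnetic retraction. The authors deposited log2 expression values per probe set, already background-corrected, normalized and summarized. RMA and GCRMA are named in the submitters' processing notes without versions, and those notes do not say which was used. The values were analysed as deposited.

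The table held 31099 probe sets, from which 57 controls were removed. The platform's annotation named 1 gene for 20826 of the 31042 tested, several for 436 and none for 9780, and no symbol needed updating. Means of the 4 groups were estimated by limma (version 3.58.1, R 4.3.3, 4 residual and 0.921 prior degrees of freedom), and p-values were adjusted by Benjamini-Hochberg over all 31042 probe sets at 0.05. Tables, motifs and figures were made with Python 3.11.15, pandas 2.3.3, numpy 2.4.6, scipy 1.17.1 and matplotlib 3.10.9. The fit was tested on simulated data.

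The members and lists were chosen with earlier results of these data known. The named genes are the 8 members, from each list up to 4 genes with the smallest p among those that passed and any further gene where 5 or fewer went 1 way, and the 5 genes most like Serpinc1. Alternatives were quantile normalization, median centring, an intensity trend with robust variance, the replicate number as a block, brighter probe sets only, the highest median to choose a probe set, the methods' t-test and leaving out each rat. Replicate numbers tie no rats together in the labels, and p-values measure only the spread between these rats. Scan dates of the arrays were not used here.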

Additional observations from a re-analysis of the deposited data

Results flagged for a closer look

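In 22 groups of 4 rats of a strain, 3 held a rat far from the others, and chance marks about 1 group in 20. Each such group mixes 2 ages. The lowest SHR rat for Thbd was 7.84 on probe set 1375951_at (4 weeks replicate 2) and 2.52 on probe set 1368900_at (6 weeks replicate 1). The highest Dahl rat for Vwf was 5.03 (6 weeks replicate 1).

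Among 41 probe sets and genes, 5 changed in opposite directions without overlap between the rats, either with age in the 2 strains (Entpd1, Gas6, Vkorc1l1) or between the strains at the 2 ages (Procr, Vwf). In none of the 5 did the interaction pass by limma. The interaction was 0.705 for Procr (adjusted p = 0.084), 0.696 for Vwf (adjusted p = 0.847), 0.783 for Entpd1 (adjusted p = 0.255), 0.592 for Gas6 (adjusted p = 0.124) and −0.765 for Vkorc1l1 (adjusted p = 0.135). Vwf and Entpd1 have low signal.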

How the results depend on the processing

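On the main probe sets the strain differences of the members moved by less than the spread of the rats under all 103 alternative values and kept their direction, except for Procr (−0.009041 with quantile normalization). With another probe set the difference was 1.82 for Thbd and 1.78 for Tfpi, against 1.51 and 0.27. Their age and interaction values gave 295 of 309 on the same side, 3 that newly passed and 11 that changed sign, none of which passed. No member passed for age in Dahl, and leaving out a rat gave 0 to 1, namely Procr without Dahl 6 weeks replicate 1 and Vwf without Dahl 6 weeks replicate 2, and the interaction gave 0 to 1 (Vwf, without the same rat). Over the rats left out, the age difference in SHR ranged from −0.50 to 0.28 for Serpinc1, from −0.04029 to 0.01181 for Procr and from −0.008269 to 0.001355 for Vwf. The age difference in Dahl ranged from −0.19 to 0.35 for Tfpi and from −0.12 to 0.24 for F2r, and the interaction from −0.3748 to 0.02523 for Pros1 and from −0.3457 to 0.008556 for F2r. Quantile normalization gave 0.0003409 for Vwf with age in SHR, 0.007737 for A2m and 0.01116 for Serpina5 between the strains, each reversed in sign, as was Procr.

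Of the 18 other genes higher in Dahl, a replicate block gave 11 and leaving out a rat 6 to 20. The 15 lower became 3 with quantile normalization, with the replicate block and with brighter probe sets only, 25 with median centring, 26 with an intensity trend and robust variance and 26 with the methods' t-test, and 0 to 17 with a rat left out. The deviations of same-numbered rats correlated at −0.225 to 0.236, which cannot settle whether the numbers mark a pairing. The labels give none, and the block costs degrees of freedom. In all, 190 of 406 values of the 30 named genes lost their call and 2 changed sign. Low signal limits Vwf and most of the lower genes, and Procr lies near the median of all values.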
